A study of Mus musculus with 24 samples.

Results

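Endometriotic lesions were compared with the uterus of mice with endometriosis at 1 month after surgery. The comparison holds the 4 ectopic libraries and the 4 eutopic libraries that the labels place at 1 month, 8 of the 24 libraries of the series. Lesions are uterine tissue growing outside the uterus, and eutopic uterus is the uterus in its normal place in mice that carry such lesions. By the labels, lesions had the genotype Pgrcre/+Rosa26mTmG/+ and eutopic uterus had Rosa26mTmG/+, while the series text gives the Cre driver for the mice with endometriosis as a whole. Both groups had a mixed C57BL/6 and SV129 background, surgery at 8 weeks of age, total RNA taken on pregnancy day 3.5, and a label as fertile. The Cre gene sits in the locus of Pgr, the progesterone receptor, so it is made in cells that express Pgr, and the Rosa26mTmG allele is a membrane reporter that Cre switches. If the labels are right, genotype cannot be told apart from tissue here, and lesions carry 1 copy of Pgr altered by the insertion. Whether the libraries come from separate animals is not labelled, and p-values measure only the spread between libraries, which may be technical. With all libraries, that spread was taken from all 24, also those outside this comparison. Among these, lesion library 1 at 3 months correlated at only 0.837 to 0.859 with the other lesion libraries of that age.

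On the days before an embryo attaches, progesterone acts through its receptor in uterine stroma and epithelium, and the uterine glands secrete factors that prepare the lining for implantation. In endometriosis such tissue persists in the body cavity, where macrophages, lymphocytes and wound repair programmes meet it. Genes of the uterine lining, of its glands and of the cells that enter a lesion are therefore the groups described here.

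Levels are CPM, read counts scaled to library size, and they are compared between groups and not between genes. Changes are log2 fold changes of lesions over eutopic uterus with their standard error (SE), and a gene was called at an adjusted p under 0.05 in edgeR. Total counts ran from 45133642 to 59142371 in lesions and from 54334664 to 58800226 in eutopic uterus. Of 22249 genes tested, 20.7% were called, 12.0% higher and 8.76% lower in lesions. Without lesion library 2, 11.9% of 22759 genes were called, 6.54% higher and 5.35% lower. A second edgeR fit of the 8 compared libraries alone (the 8-library fit) called 33.4% of 20170 genes, 18.1% higher and 15.3% lower, and its counts are given beside a list where they differ by over 1.5 times. It moved 34 of the 59 lists that far, 31 of them to more calls. The counts of each list are to be read against the shares over all genes in the same fit. The genes called between lesions and eutopic uterus at 1 month numbered 2707 without lesion library 2, 2595 without lesion library 4, and 2644, 2872 and 2830 without eutopic library 2, 3 and 4. All 4 lesion libraries lay above all 4 eutopic libraries in 17.5% of tested genes and below them in 14.1%. Genes named as extremes and most genes named from lists were picked among such genes, so non-overlap in them is no separate result. Across all genes the median log2 fold change was -0.01, and 49.2% were positive. Of the 4607 calls, 2603 were made again in the same direction without lesion library 2, 1477 higher and 1126 lower.

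Lesion library 2 carried transcripts of the pancreas. The 30 listed acinar genes, which encode digestive enzymes, came in sum to 10.8, 145270, 33.9 and 38.0 CPM in lesion libraries 1 to 4, against 9.61, 11.3, 9.93 and 10.8 CPM in eutopic libraries 1 to 4. Lesion library 2 thus stood apart from the other 7 libraries. Lesion libraries 3 and 4, at 33.9 and 38.0 CPM, also stood above the eutopic range of 9.61 to 11.3 CPM. The source of the acinar reads in lesion libraries 3 and 4 was not tested, and fits without lesion library 2 still hold them. Ctrb1, a chymotrypsinogen, had 0, 25637, 4.30 and 2.73 CPM in lesion libraries 1 to 4, against 0, 0.0170, 0.0166 and 0 CPM in eutopic libraries. Pnlip, the pancreatic lipase, had 0.0537, 19720, 3.27 and 2.56 CPM in lesion libraries, against 0.0351, 0.0339, 0.0331 and 0.0838 CPM in eutopic libraries. Cpa1, a carboxypeptidase, had 0, 9228, 1.49 and 0.9803 CPM in lesion libraries, against 0.0701, 0.102, 0.248 and 0.0670 CPM in eutopic libraries. All of these were picked for being high in lesion library 2 against the other lesions, and they had at most a few CPM elsewhere. Cela3b, an elastase, and Zg16, a zymogen granule protein, followed the same pattern, at 3706 and 2346 CPM in lesion library 2 and below 1 CPM in each other library. Pnliprp1 and Pnliprp2, lipase-related proteins, reached 6049 and 813 CPM in lesion library 2. Of the 16 acinar genes that passed the filter on low counts, 16 were called higher, against 12.0% of all genes, and 5 of 16 without lesion library 2 or 7 in the 8-library fit. No fold change is given for them, since it changes with lesion library 2. Limma voom with sample weights called 0 of the 16 and DESeq2 called 2. Of the 30 listed acinar genes, 11 had 0 counts in all eutopic libraries. Such a gene could pass the filter only through other libraries and could not be called lower, so its direction is no separate result.

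Other tissue also showed in that library. The 16 skeletal muscle genes came in sum to 255, 1879, 239 and 133 CPM in lesion libraries 1 to 4, against 138 to 181 CPM in eutopic libraries. Of these, 7 rose (4 without eutopic library 2, 3 or 4, 1 without lesion library 2, 2 in the 8-library fit) and 0 fell. DESeq2 called 14 higher, while limma voom called 0, as did the 8-library fit with the replicate number as a block. Atp2a1, the calcium pump of fast muscle, had 5.77, 232, 0.515 and 0.420 CPM in lesion libraries, against 0.193, 0.187, 0.315 and 0.184 CPM in eutopic libraries. Pvalb, a calcium buffer of fast muscle, had 0.358, 33.7, 0.0736 and 0.193 CPM in lesion libraries, against 0, 0, 0.0166 and 0 CPM in eutopic libraries. Neither was called without lesion library 2 (adjusted p = 0.127 and 0.279). The 12 gut genes came in sum to 6.68, 211, 7.63 and 8.07 CPM in lesion libraries, against 11.3 to 13.5 CPM in eutopic libraries, and the 12 islet genes to 5.63, 80.6, 2.26 and 8.95 CPM in lesion libraries, against 0.745 to 1.29 CPM in eutopic libraries. Chga, a granule protein of endocrine cells, and Isl1, a transcription factor of islets and other tissues, rose in lesions by 5.50 ± 0.99 and 6.28 ± 1.17 (adjusted p = 0.00149 and 0.00193), and both were called without lesion library 2, while the insulin gene Ins1 and the glucagon gene Gcg had 14.4 and 14.8 CPM in lesion library 2, 0 in the other 7 libraries, and did not pass the filter. Of 5 islet genes tested, 2 rose and 0 fell (1 without lesion library 2), and of 4 gut genes, 0 rose (1 without lesion library 1, 3 or 4) and 1 fell (0 without lesion library 1, 2, 3 or 4 or eutopic library 1, 2, 3 or 4, 2 in the 8-library fit). The gut gene that fell, Lgals4, a galectin, differed by -0.78 ± 0.27.

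**Figure D1:**
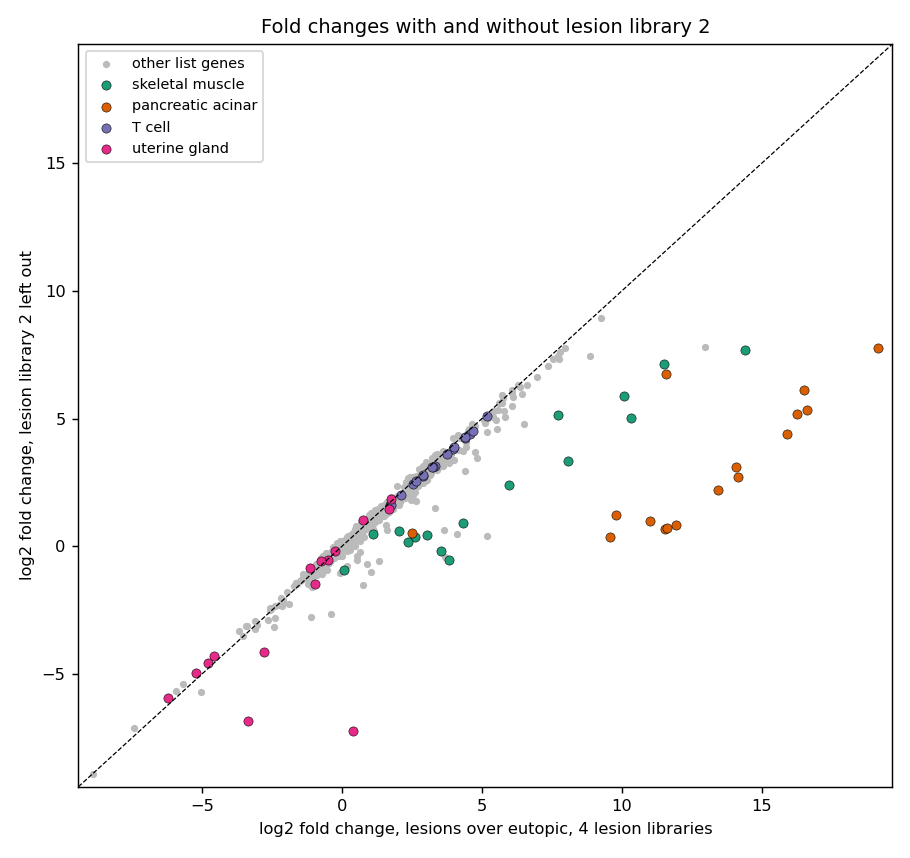
Log2 fold changes of lesions over eutopic uterus for 918 list genes (dots) with 4 lesion libraries (x axis) and with lesion library 2 left out (y axis). Pancreatic acinar and skeletal muscle genes fall far below the dashed line of equality, while T cell genes lie near it.

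The tissue label was checked against genes that mark the uterus. Pgr had 222, 143, 210.4 and 164 CPM in lesion libraries 1 to 4, against 276, 161, 152 and 148 CPM in eutopic libraries 1 to 4. Esr1, the main estrogen receptor of the uterus, had 442, 254, 429 and 324 CPM in lesion libraries, against 623, 365, 499 and 444 CPM in eutopic libraries. The libraries of both groups overlapped for these genes, with log2 fold changes of 0.00 ± 0.57 and -0.42 ± 0.26 (adjusted p = 0.998 and 0.264). Hoxa10 and Hoxa11, which pattern the uterus, had 304 ± 67.5 and 186 ± 33.8 CPM over the lesion libraries, against 392 ± 32.2 and 312 ± 15.02 CPM over the eutopic ones (SD, n = 4 each). Emx2, a factor of the developing reproductive tract, averaged 96.0 ± 8.75 CPM over the lesion libraries, against 119 ± 10.9 CPM over the eutopic ones (SD, n = 4 each). None of the 3 was called with all libraries (adjusted p = 0.763, 0.5 and 0.58), the 8-library fit called Hoxa11 and Emx2 lower (adjusted p = 0.003 and 0.0319), and all were far from 0 in each library. Of 13 Mullerian patterning genes, 0 rose (1 in the 8-library fit) and 2 fell (1 without lesion library 1, 3 or 4 or eutopic library 1, 0 without lesion library 2 or eutopic library 2, 7 in the 8-library fit). With all libraries the falls were in Hoxd9 and Hoxa13, homeobox genes of the reproductive tract, at -0.72 ± 0.21 and -3.40 ± 1.11. The list came in sum to 704 to 1006 CPM in lesion libraries, against 1153 to 1262 CPM in eutopic libraries. In bulk tissue, fewer cells of a type and less RNA per cell cannot be told apart.

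Gland genes were among those that fell. Cxcl15, a chemokine of uterine glands, had 1.00, 0.613, 4.08 and 1.24 CPM in lesion libraries 1 to 4, against 56.4, 78.9, 55.1 and 70.5 CPM in eutopic libraries 1 to 4. Wfdc3, a small secreted protein of the whey acidic protein family, had 0.305, 0.187, 0.920 and 0.368 CPM in lesion libraries, against 8.43, 14.0, 12.8 and 15.5 CPM in eutopic libraries. Foxa2, the transcription factor that glands need to form, had 0.555, 7.52, 1.69 and 0.770 CPM in lesion libraries, against 15.7, 16.9, 19.7 and 19.8 CPM in eutopic libraries. Each lesion library lay below each eutopic library for all 3 genes, and lesion library 2 held the highest lesion value of Foxa2. They fell, with log2 changes of -5.22 ± 0.80, -4.81 ± 0.53 and -2.79 ± 0.68 (adjusted p = 0.000589, 3.29e-05 and 0.00828). Without lesion library 2 the change of Foxa2 was -4.17.

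Of 15 gland genes tested, 0 rose (2 in the 8-library fit) and 5 fell (3 without lesion library 1, 3 or 4 or eutopic library 2, 3 or 4), against 8.76% of all genes called lower. Their median log2 fold change was -0.97, against -0.01 over all genes. Without lesion library 2 it was -1.49, against -0.02 over all genes. The 8-library fit called 6 gland genes lower, and 8 when lesion library 2 was left out of it. Spink1, a trypsin inhibitor of uterine glands, is also a transcript of the pancreas. It had 0.107, 342, 1.10 and 0.0875 CPM in lesion libraries 1 to 4, against 25.9, 60.5, 110.2 and 67.6 CPM in eutopic libraries 1 to 4. The value was near 0 in lesion libraries 1, 3 and 4 and above every eutopic library in lesion library 2. Its log2 difference was 0.38 ± 1.56 with all libraries (adjusted p = 0.886) and -7.26 without lesion library 2 (adjusted p = 0.0109). Ttr, which carries thyroid hormone and retinol-binding protein, had 0.0179, 2.99, 0.166 and 0.0175 CPM in lesion libraries, against 7.08, 6.95, 8.24 and 9.47 CPM in eutopic libraries. Its change was -3.35 ± 1.11 with all libraries (adjusted p = 0.0382), which was called in 2 of 8 fits that each left out 1 library, and -6.86 without lesion library 2 (adjusted p = 0.00171). The proteases Prss28 and Prss29 had 0.0275 ± 0.0438 and 0.0184 ± 0.0368 CPM over the lesion libraries, against 0.755 ± 0.340 and 1.63 ± 1.605 CPM over the eutopic ones (SD, n = 4 each), and Prss29 was called in 1 of the 8 fits that each left out 1 library. Prss28 was called lower in the 8-library fit (adjusted p = 0.00225) and not with all libraries (adjusted p = 0.0766). Lif, the implantation cytokine secreted by glands, had 5.09, 7.30, 7.10 and 6.76 CPM in lesion libraries and 6.21, 9.46, 9.37 and 12.0 CPM in eutopic libraries, which overlapped (log2 difference -0.50 ± 0.55, adjusted p = 0.551).

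Of 16 general epithelial genes, 0 rose (1 in the 8-library fit) and 0 fell (3 in the 8-library fit), with a median of -0.14, while 0 higher and 0 lower had an unadjusted p under 0.05, DESeq2 called 0 and limma voom called 2 lower. Cldn3, a tight junction protein, had 139, 71.9, 135 and 81.1 CPM in lesion libraries, against 171, 231, 270.0 and 299.9 CPM in eutopic libraries. It was called lower in the 8-library fit, at -1.20 (adjusted p = 0.00684), and not with all libraries (adjusted p = 0.207). Epcam, an epithelial adhesion molecule, averaged 108 ± 16.2 CPM over the lesion libraries, against 131 ± 35.4 CPM over the eutopic ones (SD, n = 4 each). Of 15 genes of the receptive lumen, 1 rose (3 in the 8-library fit) and 3 fell (1 without eutopic library 4, 0 without lesion library 2 or 4 or eutopic library 2, 6 in the 8-library fit). Aoc1, which oxidises diamines, had 3.26, 11.7, 6.27 and 8.66 CPM in lesion libraries, against 0.947, 1.15, 0.712 and 1.51 CPM in eutopic libraries, and rose by 2.79 ± 0.68 (adjusted p = 0.00832). The falls were in Areg, a progesterone-induced growth factor, Il13ra2, a decoy receptor, and Fst, which binds activins, with log2 changes of -2.54 ± 0.83, -1.97 ± 0.63 and -2.17 ± 0.65. Fst had 29.3, 16.8, 28.1 and 22.4 CPM in lesion libraries, against 147, 131, 78.5 and 79.0 CPM in eutopic libraries. Ihh, the epithelial signal to the stroma, had 30.4, 14.2, 31.1 and 17.7 CPM in lesion libraries, against 34.3, 44.8, 49.1 and 46.3 CPM in eutopic libraries. Hand2, its stromal counterpart downstream of progesterone, had 55.1, 34.6, 76.7 and 43.6 CPM in lesion libraries, against 84.2, 90.6, 101 and 93.8 CPM in eutopic libraries. Lesion libraries lay below eutopic libraries for both, with log2 differences of -0.90 ± 0.65 and -0.82 ± 0.48 that were not called (adjusted p = 0.333 and 0.229), though the 8-library fit called both lower (adjusted p = 0.021 and 0.0162).

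**Figure D2:**
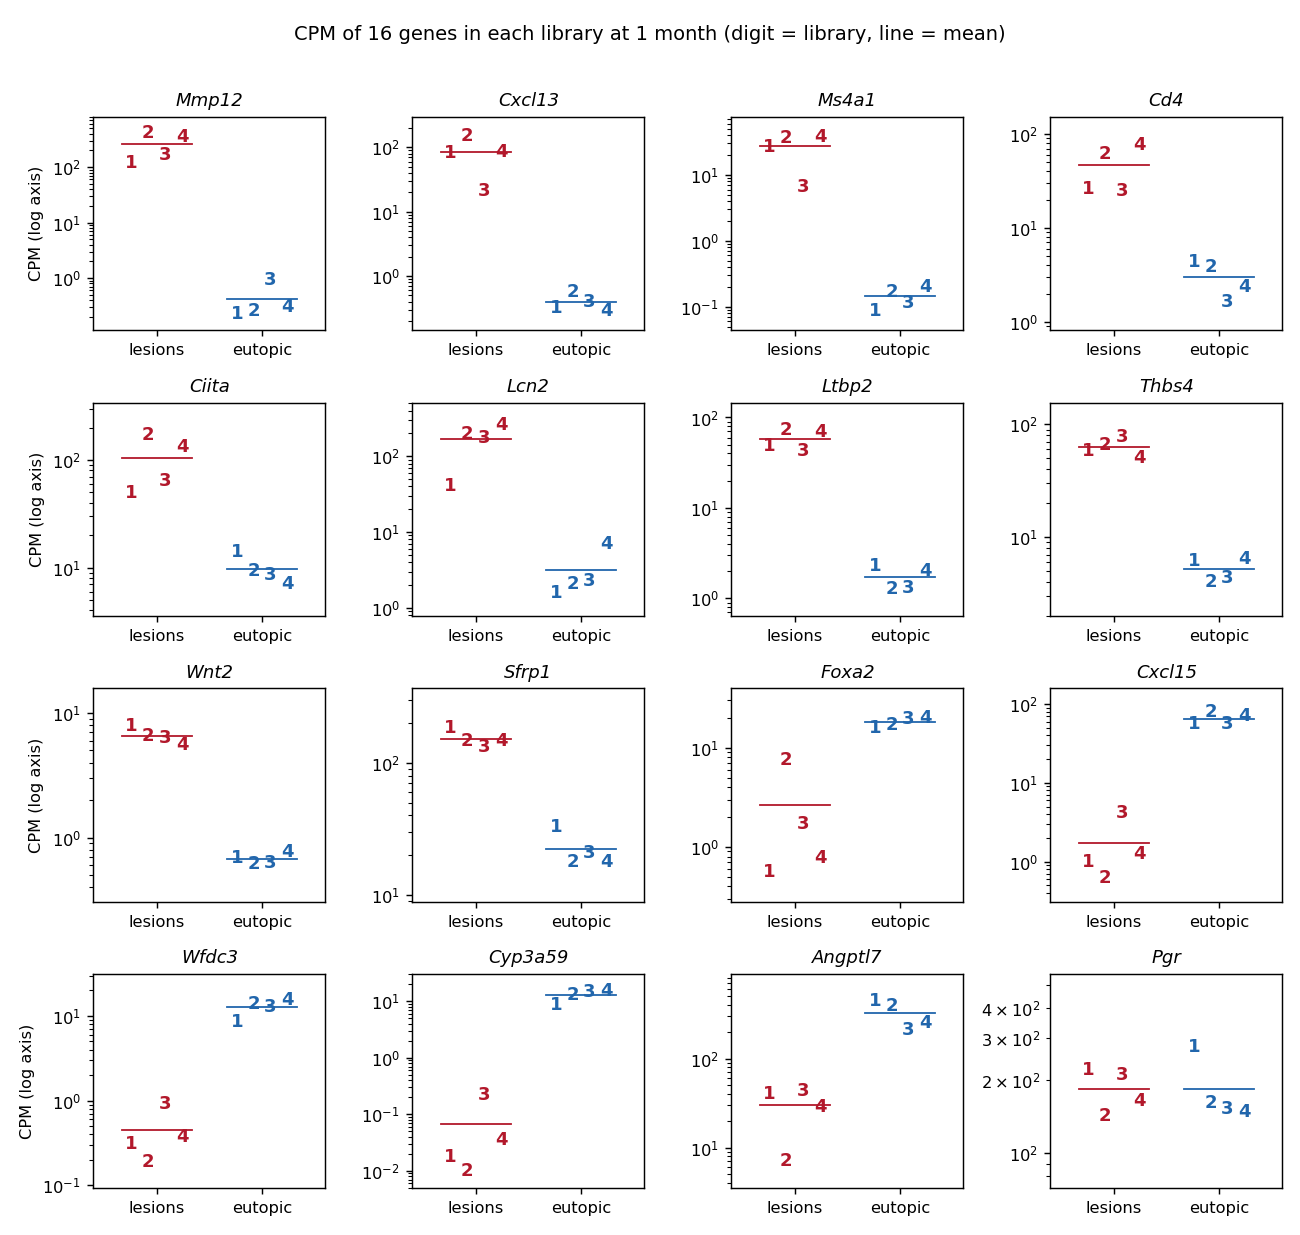
CPM of 16 genes (log axis) in lesion libraries (left, red) and eutopic libraries (right, blue), with the digit giving the library and the line the mean. For 15 of the genes no lesion library overlaps a eutopic library, Pgr being the exception, and Cyp3a59 in lesion library 2, at 0, is drawn at the lower limit of 0.01. Apart from Foxa2 and Pgr, the genes were named by rules that required no overlap.

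The Cyp3a family, monooxygenases that act on steroids and drugs, held large falls. Cyp3a59 had 0.0179, 0, 0.221 and 0.0350 CPM in lesion libraries 1 to 4, against 8.78, 13.2, 14.7 and 15.1 CPM in eutopic libraries 1 to 4. Cyp3a57 had 0.107, 0.0267, 0.349 and 0.0700 CPM in lesion libraries, against 8.69, 8.56, 8.19 and 10.4 CPM in eutopic libraries. No lesion library came near the eutopic range, and the genes fell, with log2 changes of -7.45 ± 0.79 and -5.96 ± 0.69 (adjusted p = 4.23e-05 and 4.23e-05). Cyp3a16 had 0 counts in all 4 lesion libraries and 263 counts over the eutopic libraries, at least 73.5-fold lower in lesions when 3 counts in all 4 libraries together are taken as the floor. Of 5 members tested, 0 rose and 4 fell, with a median of -5.96, and 4 fell without lesion library 2. The longest coding transcripts of Cyp3a57 and Cyp3a59 were identical at 93.4% of 1979 aligned bases, so reads may have been split between these genes or others of the family, and single members are uncertain. The bases just before their start sites are shown because both genes fell. They come from RefSeq (build GRCm38.p6) and read 5′ to 3′, with capitals for AGGTCA, a letter run that nuclear receptors can bind, on either strand.
Cyp3a59 (chr5:146079068-146079257, + strand): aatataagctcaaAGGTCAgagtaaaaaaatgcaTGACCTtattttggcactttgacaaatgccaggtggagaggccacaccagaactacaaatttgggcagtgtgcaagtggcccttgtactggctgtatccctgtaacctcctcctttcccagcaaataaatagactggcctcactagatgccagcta
Cyp3a57 (chr5:145345079-145345268, + strand): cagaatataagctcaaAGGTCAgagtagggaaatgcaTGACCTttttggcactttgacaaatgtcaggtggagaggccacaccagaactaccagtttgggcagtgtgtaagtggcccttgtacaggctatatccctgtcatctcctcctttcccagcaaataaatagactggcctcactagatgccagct
Both hold 2 copies, the nearer one at -156 to -151 in Cyp3a59 and at -153 to -148 in Cyp3a57 relative to the start, and 15.8% of 27025 genes with a listed promoter hold at least 1 copy within 250 bases before the start. The share with 2 copies was not counted. A match is a description and not a site.

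Other genes with large falls had varied functions. Tmprss11g, a transmembrane serine protease, had 0.412, 1.79, 0.533 and 0.543 CPM in lesion libraries, against 22.4, 27.9, 17.7 and 36.9 CPM in eutopic libraries. Angptl7, a secreted angiopoietin-like protein, had 40.5, 7.06, 43.1 and 28.5 CPM in lesion libraries, against 441, 385, 211 and 248 CPM in eutopic libraries. Lrrc3b, a leucine-rich repeat membrane protein, had 1.04, 0.773, 0.772 and 0.788 CPM in lesion libraries, against 8.26, 11.7, 9.90 and 9.30 CPM in eutopic libraries. Lesion and eutopic libraries did not overlap for these genes, which fell, with log2 changes of -5.04 ± 1.03, -3.43 ± 0.83 and -3.53 ± 0.52. Topaz1, a germ-cell RNA-binding protein, Degs2, a sphingolipid desaturase and hydroxylase, and Sh3rf2, an adaptor and ubiquitin ligase, fell, with log2 changes of -3.70 ± 0.55, -3.13 ± 0.42 and -3.10 ± 0.68 (adjusted p = 0.000471, 0.000235 and 0.00487). All 6 were named by a rule that required no overlap and a call without lesion library 2, so neither is a separate result.

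T cell genes rose in lesions. Cd4, the coreceptor of helper T cells, had 25.8, 61.5, 24.7 and 76.2 CPM in lesion libraries 1 to 4, against 4.31, 3.80, 1.62 and 2.33 CPM in eutopic libraries 1 to 4. Cd5, a surface receptor of T cells, had 11.9, 23.7, 10.3 and 35.2 CPM in lesion libraries, against 1.24, 1.09, 0.679 and 0.888 CPM in eutopic libraries. Lesion libraries 2 and 4 stood above libraries 1 and 3 in these genes, and all lay above the eutopic range. They rose by 3.96 ± 0.71 and 4.38 ± 0.79 (adjusted p = 0.00152 and 0.00159). Of 18 T cell genes, 18 rose, 15 without lesion library 2 and 14 without lesion library 4, against 12.0% of all genes called higher. The median log2 fold change of the list was 3.27, against -0.01 over all genes. Cd8a, which marks cytotoxic T cells, rose by 4.38 ± 0.94, and Ctla4, a checkpoint receptor, by 4.69 ± 1.04. Of 15 genes of natural killer and cytotoxic cells, 1 rose (9 in the 8-library fit) and 0 fell. The rise was in Gzmk, a granzyme, with a change of 3.80 ± 1.01 (adjusted p = 0.0126). Ncr1, a receptor of natural killer cells, averaged 11.4 ± 2.84 CPM over the lesion libraries, against 10.96 ± 1.69 CPM over the eutopic ones (SD, n = 4 each).

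B cell genes rose too. Ms4a1, which encodes CD20, had 26.9, 36.7, 6.46 and 38.0 CPM in lesion libraries, against 0.0876, 0.170, 0.116 and 0.201 CPM in eutopic libraries. Lesion library 3 was the lowest of the lesions and still lay far above the highest eutopic library. Ms4a1 rose by 7.53 ± 0.88 (adjusted p = 5.23e-05). The B and plasma cell list had 15 genes, of which 12 rose (9 without lesion library 2) and 0 fell, with a median of 3.56. Ighm, the heavy chain of IgM, had 1270.4, 7608, 129 and 873 CPM in lesion libraries, against 26.03, 31.2, 21.4 and 29.7 CPM in eutopic libraries, a change of 6.51 that was 4.79 without lesion library 2. Of immunoglobulin gene segments, 45 of 215 tested rose and 0 fell, and of T cell receptor segments 31 of 50 rose and 0 fell. Over all genes, 12.0% were called higher and 8.76% lower. A segment near 0 in eutopic uterus passed the filter on low counts only through other libraries, so its direction is no separate result. Segments were not counted without lesion library 2. Cxcl13, a B cell attractant of lymphoid follicles, had 81.3, 149.9, 21.3 and 86.3 CPM in lesion libraries, against 0.316, 0.560, 0.397 and 0.285 CPM in eutopic libraries. Its receptor Cxcr5 had 6.97, 9.30, 2.59 and 12.4 CPM in lesion libraries, against 0.105, 0.0678, 0.166 and 0.0335 CPM in eutopic libraries. Both rose, by 7.76 ± 1.14 and 6.36 ± 0.94 (adjusted p = 0.000468 and 0.000471), and Glycam1, a ligand of homing lymphocytes on venules, had 1.73 ± 0.738 CPM over the lesion libraries, against 0.0337 ± 0.0334 CPM over the eutopic ones (SD, n = 4 each).

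Macrophage genes rose. Mmp12, the macrophage elastase, had 118, 405, 169 and 346 CPM in lesion libraries 1 to 4, against 0.228, 0.254, 0.911 and 0.302 CPM in eutopic libraries 1 to 4. Its change was 9.25 ± 1.45 (adjusted p = 0.000636). Atp6v0d2, a proton pump subunit of phagocytes and osteoclasts, had 17.6, 61.7, 24.4 and 70.0 CPM in lesion libraries, against 1.10, 1.54, 1.04 and 1.04 CPM in eutopic libraries. Timd4, a receptor for dying cells on resident macrophages, had 12.1, 10.502, 2.17 and 7.07 CPM in lesion libraries, against 0.824, 0.119, 0.248 and 0.168 CPM in eutopic libraries. Marco, a scavenger receptor, had 6.54, 42.9, 2.74 and 7.44 CPM in lesion libraries, against 0, 0.0509, 0.0331 and 0.0335 CPM in eutopic libraries. Each lesion library exceeded each eutopic library, and Marco was highest in lesion library 2, without which its change was 7.44 in place of 8.87. Of 19 scavenger and lipid-laden macrophage genes, 13 rose (12 without lesion library 2) and 0 fell, with a median of 2.79. Of 15 resident macrophage genes, 11 rose (9 without lesion library 2) and 0 fell. Prg4, a lubricant protein of joints and serous surfaces that is also made by peritoneal macrophages, rose by 4.17 ± 0.79 (adjusted p = 0.00211). Clec4d and Clec4e, C-type lectins that sense microbes and dead cells, rose by 6.09 ± 1.07 and 5.55 ± 1.08.

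The summed level of neutrophil genes was highest in lesion library 2, at 106, 614, 265 and 410.4 CPM in lesion libraries 1 to 4, against 43.0, 51.7, 24.1 and 41.1 CPM in eutopic libraries 1 to 4. S100a8, a calcium-binding protein of neutrophils, had 4.12, 58.2, 7.61 and 13.0 CPM in lesion libraries, against 0.578, 1.17, 0.248 and 0.939 CPM in eutopic libraries. Mmp8, the neutrophil collagenase, had 0.985, 11.1, 0.699 and 6.98 CPM in lesion libraries, against 0.0526, 0.0678, 0.166 and 0.0503 CPM in eutopic libraries. Both were highest in lesion library 2 and called without it (adjusted p = 0.0328 and 0.00536). Of 11 tested neutrophil genes, 9 rose (5 without lesion library 2) and 0 fell (1 without lesion library 2 or eutopic library 3). Ngp, a granule protein, had 0 counts in eutopic uterus and 0.269, 73.0, 1.05 and 0.193 CPM in lesion libraries, at least 1466-fold higher over the group, with nearly all of it in lesion library 2. Of 10 mast cell and eosinophil genes, 0 rose (1 in the 8-library fit) and 1 fell (0 without lesion library 3 or 4 or eutopic library 2, 3 or 4). That gene was Kit, a growth factor receptor that other cells also use, at -0.68 ± 0.22.

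**Figure D3:**
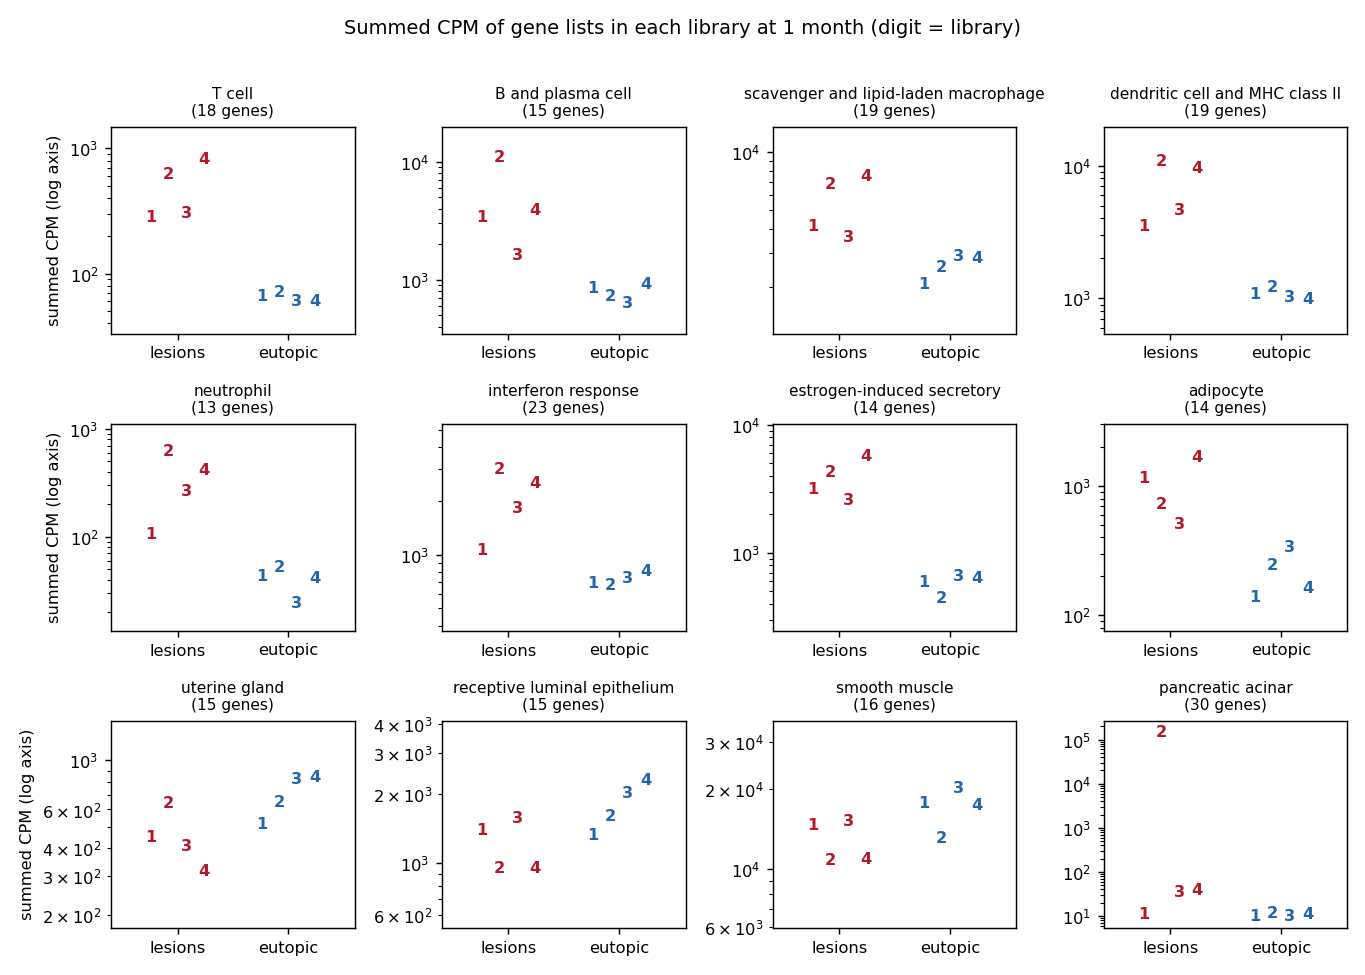
Summed CPM of 12 gene lists (log axis) in lesion libraries (left, red) and eutopic libraries (right, blue), with the digit giving the library. The uterine gland sum of lesion library 2, at 637 CPM, includes Spink1, also a transcript of the pancreas, which was high in that library. T cell, macrophage, class II, neutrophil, interferon and estrogen-induced sums are highest in lesion libraries 2 and 4, B cell sums likewise, and the pancreatic list reaches 145270 CPM in lesion library 2 alone.

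Antigen presentation genes rose together. Ciita, the master regulator of MHC class II, had 49.3, 171, 64.4 and 131 CPM in lesion libraries 1 to 4, against 13.9, 9.39, 8.61 and 7.07 CPM in eutopic libraries 1 to 4. H2-DMb2, which loads peptides, had 11.6, 39.9, 13.4 and 36.1 CPM in lesion libraries, against 1.93, 2.27, 2.52 and 2.25 CPM in eutopic libraries. H2-Eb1, a class II chain, had 557, 1634, 722 and 1478 CPM in lesion libraries, against 170.4, 185, 152 and 143 CPM in eutopic libraries. As with T cell genes, lesion libraries 2 and 4 stood above 1 and 3, and all stood above eutopic uterus. The changes were 3.41 ± 0.68, 3.49 ± 0.72 and 2.76 ± 0.64 (adjusted p = 0.00276, 0.00347 and 0.00611). The list of antigen-presenting dendritic cells and class II genes had 19 members, of which 18 rose (15 without lesion library 2) and 0 fell, with a median of 2.55. H2-M2, a nonclassical class I gene outside the lists, had 8.19, 66.9, 25.6 and 66.5 CPM in lesion libraries, against 0.210, 0.153, 0.563 and 0.402 CPM in eutopic libraries, and rose by 6.96 ± 1.19. H2-DMb1 and H2-DMb2 are close copies, so reads may be shared between them. The 150 bases before the start of 5 of these genes are shown because class II genes are known to share promoter elements and moved together here. They come from RefSeq (build GRCm38.p6) and read 5′ to 3′. Capitals mark GATTGG (the Y box letters, an inverted CCAAT box) on either strand and, upstream of it, a run of letters of the X box that was chosen after these promoters were read.
H2-Eb1 (chr17:34305717-34305866, + strand): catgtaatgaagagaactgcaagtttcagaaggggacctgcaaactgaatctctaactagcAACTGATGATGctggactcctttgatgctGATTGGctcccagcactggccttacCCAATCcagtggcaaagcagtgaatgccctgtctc
H2-DMb1 (chr17:34153041-34153190, + strand): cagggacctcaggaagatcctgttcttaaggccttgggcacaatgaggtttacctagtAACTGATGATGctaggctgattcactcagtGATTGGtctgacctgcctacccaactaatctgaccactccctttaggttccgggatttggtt
H2-DMb2 (chr17:34145099-34145248, + strand): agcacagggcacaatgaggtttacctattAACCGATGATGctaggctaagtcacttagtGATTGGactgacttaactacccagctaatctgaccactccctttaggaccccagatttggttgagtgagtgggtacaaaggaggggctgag
H2-Ob (chr17:34238755-34238904, + strand): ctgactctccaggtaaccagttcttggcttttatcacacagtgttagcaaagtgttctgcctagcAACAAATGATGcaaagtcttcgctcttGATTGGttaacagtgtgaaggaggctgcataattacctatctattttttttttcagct
H2-Aa (chr17:34287824-34287973, - strand): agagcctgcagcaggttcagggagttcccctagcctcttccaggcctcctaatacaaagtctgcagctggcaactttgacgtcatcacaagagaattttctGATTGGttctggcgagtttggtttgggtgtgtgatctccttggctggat
GATTGG was found within 250 bases before the start in 7 of 7 class II genes with a listed promoter and in 16.6% of all 27025 genes. The X box letters were found in 4 of the 7 and in 0.137% of all genes, and no copy overlapped a GATTGG. No X box match in H2-Aa means only that these letters are not in its window.

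Chemokines and cytokines followed. Of 28 chemokine genes, 21 rose (18 without lesion library 2) and 1 fell, with a median of 2.92. The fall was in Cxcl15. Ccl17, which attracts helper T cells, had 2.01, 2.08, 2.98 and 10.96 CPM in lesion libraries, against 0.280, 0.220, 0.248 and 0.268 CPM in eutopic libraries, and its change of 4.14 ± 0.60 was 3.19 without lesion library 4. Ccr7, the receptor that guides cells to lymphoid tissue, had 8.08, 16.1, 6.95 and 35.2 CPM in lesion libraries, against 0.561, 0.153, 0.166 and 0.486 CPM in eutopic libraries. Both were highest in lesion library 4 and above eutopic uterus in each lesion library. Ccr7 rose by 5.60 ± 0.83, and of 21 chemokine receptors, 15 rose (10 without lesion library 2) and 0 fell (1 without lesion library 1, 1 in the 8-library fit). Il1a and Il1b, the interleukin 1 cytokines, rose by 6.09 ± 0.93 and 3.90 ± 0.69 (adjusted p = 0.000569 and 0.00136). Il1a had 1.07, 7.57, 4.43 and 7.25 CPM in lesion libraries, against 0.0701, 0.0848, 0.0166 and 0.117 CPM in eutopic libraries. Of 22 interleukin and TNF family genes, 14 rose (11 without lesion library 2) and 0 fell. Il6, an inflammatory cytokine, differed by -0.01 ± 0.74 (adjusted p = 0.995).

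Complement and interferon genes rose as well. C7, a part of the membrane attack complex, had 10.6, 6.29, 4.08 and 12.6 CPM in lesion libraries, against 0.614, 0.729, 1.11 and 0.402 CPM in eutopic libraries. C5ar1, the receptor for a complement fragment, had 24.1, 38.2, 21.4 and 43.6 CPM in lesion libraries, against 7.31, 6.00, 7.003 and 9.30 CPM in eutopic libraries. Both were picked among list members whose groups did not overlap, and the changes were 3.55 ± 0.53 and 2.10 ± 0.38 (adjusted p = 0.000516 and 0.00161). Of 20 complement genes, 13 rose (12 without lesion library 2) and 1 fell (0 without lesion library 2, 3 or 4 or eutopic library 2, 3 or 4). Stat2, which relays type I interferon signals, had 81.1, 199, 145 and 176 CPM in lesion libraries, against 53.9, 52.1, 58.0 and 58.8 CPM in eutopic libraries. Lesion library 1 was the lowest lesion and still lay above each eutopic library. Stat2 rose by 1.43 ± 0.30 (adjusted p = 0.00353). Of 23 interferon response genes, 12 rose (7 without lesion library 4 or eutopic library 3, 6 without lesion library 2, 21 in the 8-library fit) and 0 fell. Gbp2b, a guanylate-binding protein induced by interferon, had 10.9, 53.8, 17.0 and 36.5 CPM in lesion libraries, against 0.666, 0.254, 0.348 and 0.101 CPM in eutopic libraries. It has close paralogs, among them Gbp2, so its level is uncertain. Short stretches of 4 interferon response genes are shown from RefSeq (build GRCm38.p6, 5′ to 3′) because they rose, with capitals for the core of the interferon-stimulated response element, on either strand.
Stat2 (chr10:128270261-128270300, + strand): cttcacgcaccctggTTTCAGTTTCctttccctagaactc
Oas3 (chr5:120777710-120777749, - strand): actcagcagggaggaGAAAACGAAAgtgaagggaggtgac
Gbp2 (chr3:142620589-142620628, + strand): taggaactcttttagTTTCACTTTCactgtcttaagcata
Gbp3 (chr3:142559984-142560029, + strand): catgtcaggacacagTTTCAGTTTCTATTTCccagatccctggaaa
Of 18 interferon response genes with a listed promoter, 10 hold these letters within 250 bases before the start, and 3.46% of all 27025 genes do. Overlapping copies in Gbp3 run together in capitals.

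Secretory genes that estrogen induces in the uterine epithelium stood higher in lesions on pregnancy day 3.5. Ltf, lactoferrin, had 294, 1004, 665 and 1035 CPM in lesion libraries 1 to 4, against 38.9, 42.0, 37.4 and 122 CPM in eutopic libraries 1 to 4. Lcn2, an iron-siderophore binding protein, had 40.4, 198, 174 and 255 CPM in lesion libraries, against 1.54, 2.05, 2.22 and 6.87 CPM in eutopic libraries. Clca3a2, a chloride channel regulator, had 3.65, 14.2, 10.3 and 22.1 CPM in lesion libraries, against 0.403, 0.339, 0.447 and 0.939 CPM in eutopic libraries. Each lesion library exceeded each eutopic library in these genes. Their changes were 3.64 ± 1.20, 5.71 ± 1.47 and 4.55 ± 0.83 (adjusted p = 0.0369, 0.0109 and 0.00159), and Ltf lost its call without lesion library 2 (adjusted p = 0.0742), without lesion library 4, and without any 1 of the 4 eutopic libraries. Of 14 genes of the list, 8 rose (6 without lesion library 2, 5 without eutopic library 2 or 3) and 0 fell, with a median of 3.55. Ltf, Lcn2, C3 and Chil1 are also made by immune cells, and immune genes were higher in the same libraries. The part of each cell type in these rises was not tested. Chil1, a chitinase-like protein, rose by 6.07 ± 1.52.

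Some repair, matrix and growth factor genes rose. Thbs4, a thrombospondin of injured tissue, had 58.4, 65.6, 77.9 and 50.5 CPM in lesion libraries, against 6.08, 3.97, 4.35 and 6.40 CPM in eutopic libraries. Tnc, tenascin, a matrix protein of wounds, had 241, 231, 308 and 163 CPM in lesion libraries, against 38.2, 25.6, 21.7 and 24.3 CPM in eutopic libraries. Lesion library 2 lay within the range of the other lesions, and the groups did not overlap. They rose by 3.60 ± 0.37 and 3.10 ± 0.48 (adjusted p = 1.77e-05 and 0.000586). Of 24 matrix and repair genes, 10 rose (9 without lesion library 2) and 0 fell, with a median of 0.84. Of 25 collagens, 4 rose and 2 fell (1 without lesion library 2 or 4 or eutopic library 4), against 12.0% of all genes called higher and 8.76% lower. Col1a1, the main fibrillar collagen, averaged 4236 ± 964 CPM over the lesion libraries, against 3376 ± 1182 CPM over the eutopic ones (SD, n = 4 each). The rises included Col8a1, of vessel and basement membranes, at 2.96 ± 0.50, and Col6a5 at 3.13 ± 0.59. Of 27 matrix proteases and inhibitors, 6 rose (5 without lesion library 2, 10 in the 8-library fit) and 1 fell (2 without lesion library 1, 0 without lesion library 4 or eutopic library 1, 4 in the 8-library fit).

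Wnt and TGF-beta family genes showed a mixed pattern. Over all genes, 12.0% were called higher and 8.76% lower (18.1% and 15.3% in the 8-library fit). Wnt2, a Wnt ligand of stroma, had 7.85, 6.56, 6.27 and 5.57 CPM in lesion libraries 1 to 4, against 0.684, 0.610, 0.629 and 0.771 CPM in eutopic libraries 1 to 4. Wnt4, a ligand that progesterone induces in stroma at decidualization, had 35.3, 46.9, 37.0 and 53.7 CPM in lesion libraries, against 3.47, 4.14, 8.38 and 4.53 CPM in eutopic libraries. Sfrp1, a secreted Wnt antagonist, had 185, 147, 132 and 148 CPM in lesion libraries, against 32.5, 17.8, 20.7 and 17.6 CPM in eutopic libraries. Lesion libraries were above eutopic libraries throughout, by 3.28 ± 0.41, 3.07 ± 0.59 and 2.79 ± 0.37 (adjusted p = 9.26e-05, 0.00219 and 0.00017). The receptor Fzd2 fell, with a log2 change of -0.69 ± 0.13, and the effector Tcf7, also a T cell factor, rose by 1.37 ± 0.24. Of 27 Wnt ligands and receptors, 5 rose (2 without lesion library 2 or 4 or eutopic library 2, 3 or 4, 10 in the 8-library fit) and 1 fell (3 in the 8-library fit). Of 19 antagonists and targets, 5 rose (3 without lesion library 1 or 3, 2 without lesion library 2 or eutopic library 2, 3 or 4, 8 in the 8-library fit) and 0 fell (2 in the 8-library fit). Axin2, a general Wnt target, had a log2 difference of 0.12 ± 0.20 (adjusted p = 0.704). Ltbp2, a matrix protein related to TGF-beta binding proteins, had 48.2, 72.9, 42.3 and 68.6 CPM in lesion libraries, against 2.28, 1.27, 1.31 and 2.01 CPM in eutopic libraries. It rose by 5.08 ± 0.63 (adjusted p = 8.49e-05). Tgfbr1, a TGF-beta receptor, rose by 1.09 ± 0.17. Of 33 BMP and TGF-beta genes, 10 rose (7 without lesion library 2, 6 without eutopic library 2, 16 in the 8-library fit) and 3 fell (0 without lesion library 2 or 4). Igfbp2, an insulin-like growth factor binding protein, had 18.8, 18.6, 21.7 and 11.7 CPM in lesion libraries, against 0.368, 0.797, 0.778 and 0.687 CPM in eutopic libraries, and rose by 4.75 ± 0.70, while the Igf1 difference was -0.88 ± 0.37 (adjusted p = 0.0963, and 0.0435 in the 8-library fit). Igf2bp3, an RNA-binding protein of Igf2 transcripts, rose by 4.31 ± 0.91. Of 12 genes of that family, 2 rose and 0 fell (3 in the 8-library fit). Fgf2, a fibroblast growth factor, had 55.6, 33.9, 46.2 and 43.9 CPM in lesion libraries, against 20.02, 15.8, 15.1 and 13.3 CPM in eutopic libraries, and rose by 1.48 ± 0.26. Of 16 hedgehog and HAND2 axis genes, 2 rose (1 without lesion library 1, 2, 3 or 4 or eutopic library 2, 3 or 4) and 1 fell (0 without lesion library 1, 2 or 4 or eutopic library 1, 2, 3 or 4, 4 in the 8-library fit). Fgfr1, an FGF receptor, rose by 0.68 ± 0.22.

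Vessel and nerve genes were divided, beside 12.0% of all genes called higher and 8.76% lower. Aplnr, the apelin receptor of sprouting vessels, had 46.5, 21.8, 39.9 and 31.9 CPM in lesion libraries, against 116, 101, 125 and 121 CPM in eutopic libraries, and fell, with a log2 change of -1.72 ± 0.36, while its ligand gene Apln rose by 1.76 ± 0.47 (adjusted p = 0.00353 and 0.0132). Of 15 endothelial genes, 0 rose (2 in the 8-library fit) and 6 fell (3 without lesion library 2 or eutopic library 3, 2 without lesion library 4). Egfl7 and Esam, both made by endothelium, fell, with log2 changes of -0.95 ± 0.20 and -0.88 ± 0.19, and Pecam1 differed by -0.21 ± 0.18. Vcam1, an adhesion molecule of inflamed venules, had 71.7, 176, 92.9 and 182 CPM in lesion libraries, against 21.4, 17.2, 17.2 and 18.4 CPM in eutopic libraries. It rose by 2.82 ± 0.43 (adjusted p = 0.00058). Angpt4, an angiopoietin, rose by 1.59 ± 0.38. Of 16 vessel growth factor genes, 7 rose (4 without lesion library 2 or 4 or eutopic library 3 or 4, 3 without eutopic library 2) and 1 fell (2 in the 8-library fit). Of 8 activated venule genes, 3 rose (2 without lesion library 2, 5 in the 8-library fit) and 1 fell. Chst4, a sulfotransferase of high endothelial venules and uterine epithelium, fell, with a log2 change of -2.42 ± 0.45. Of 9 lymphatic genes, 1 rose and 0 fell, the rise being in Pdpn, podoplanin, at 1.06 ± 0.28. Mbp, a myelin protein that immune cells also transcribe, rose by 2.001 ± 0.24. Of 18 Schwann cell and nerve genes, 4 rose (2 without lesion library 1 or eutopic library 2, 1 without lesion library 2 or eutopic library 3 or 4) and 3 fell (2 without lesion library 2, 1 without lesion library 1 or 3 or eutopic library 1, 2, 3 or 4).

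Steroid and lipid handling differed in part, beside 12.0% of all genes called higher and 8.76% lower. Hsd11b2, which inactivates glucocorticoid, had 100.4, 40.1, 106 and 86.8 CPM in lesion libraries, against 249, 308, 262 and 243 CPM in eutopic libraries, and fell, with a log2 change of -1.67 ± 0.41. Hsd11b1, which activates glucocorticoid, had 16.4, 26.1, 11.6 and 26.1 CPM in lesion libraries, against 4.22, 5.97, 5.53 and 4.36 CPM in eutopic libraries, and rose by 1.998 ± 0.52. The 2 enzymes thus moved in opposite directions (adjusted p = 0.00881 and 0.0122). Of 13 steroid metabolism genes, 1 rose (3 in the 8-library fit) and 1 fell (2 without lesion library 4). Of 16 steroid receptors and coregulators, 2 rose (1 without lesion library 1, 2 or 4 or eutopic library 2, 3 or 4) and 2 fell (1 without lesion library 2 or 4 or eutopic library 2, 3 or 4), among them Ncoa3, a coactivator, at 0.85 ± 0.17 and Pgrmc2, a progesterone-binding membrane protein, at -0.43 ± 0.10. Hpgd, which degrades prostaglandins, fell, with a log2 change of -1.40 ± 0.24, and Tbxas1, the thromboxane synthase, rose by 2.34 ± 0.52 (adjusted p = 0.00109 and 0.00515). Of 21 prostaglandin genes, 4 rose (2 without lesion library 2 or eutopic library 3) and 1 fell (2 in the 8-library fit). Scd1, a fatty acid desaturase, had 1508, 310.0, 220.4 and 947 CPM in lesion libraries, against 77.7, 122, 61.2 and 61.9 CPM in eutopic libraries, and rose by 3.21 ± 0.75, or by 2.60 without lesion library 1. Of 20 cholesterol and fatty acid genes, 6 rose (14 in the 8-library fit) and 0 fell, and 20 had a positive difference, against 49.2% of all genes. The 14 adipocyte genes came in sum to 1142, 722, 505 and 1670.3 CPM in lesion libraries, against 136, 245, 334 and 162 CPM in eutopic libraries, and 3 rose (5 without lesion library 3, 8 in the 8-library fit) and 0 fell, while DESeq2 called 7 higher and limma voom 13. The rises with all libraries were in Pparg, the adipocyte regulator, and Lpl, a lipase, at 1.72 ± 0.39 and 2.44 ± 0.59, and in Pnpla2. Pnpla2 was called in 1 of 8 fits that each left out 1 library. Lpl is also counted in the scavenger and lipid-laden macrophage list. The other adipocyte genes, among them Adipoq, Plin1, Cidec and Lep, were not called with all libraries. Scd1 is also a gene of fat cells, and the part of fat cells in its rise was not tested. Hmox1, which degrades heme, had 37.5, 94.3, 36.3 and 75.1 CPM in lesion libraries, against 12.1, 17.5, 16.9 and 20.3 CPM in eutopic libraries. It rose by 1.86 ± 0.28, and Hpx, which binds free heme in plasma, fell, with a log2 change of -2.60 ± 0.36. Of 18 heme and iron genes, 6 rose (4 without lesion library 2) and 1 fell.

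Other lists held fewer calls. The shares over all genes were 12.0% higher and 8.76% lower (18.1% and 15.3% in the 8-library fit). Cebpb, a factor of decidual stroma, rose by 1.20 ± 0.25, and of 18 decidual genes, 2 rose and 1 fell (3 in the 8-library fit). Of 16 smooth muscle genes, 0 rose and 0 fell (3 in the 8-library fit), 0 higher and 1 lower had an unadjusted p under 0.05, DESeq2 called 0, and limma voom called 1 higher and 4 lower. Smtn, smoothelin, had 361, 311, 369 and 317 CPM in lesion libraries, against 503, 381, 662 and 493 CPM in eutopic libraries, and it was called lower in the 8-library fit (adjusted p = 0.018) and not with all libraries (adjusted p = 0.106). Of 18 tight junction genes, 0 rose (2 in the 8-library fit) and 0 fell (1 without lesion library 2, 4 in the 8-library fit), 1 higher and 3 lower had an unadjusted p under 0.05, DESeq2 called 1 lower, and limma voom called 1 higher and 6 lower. Cldn8, a claudin, differed by -1.89 ± 0.68 (adjusted p = 0.0532) and was called lower in the 8-library fit (adjusted p = 0.00298), with DESeq2 and with limma voom. Of 14 ciliated cell genes, 0 rose (1 in the 8-library fit) and 1 fell (0 without lesion library 2 or 4, 7 in the 8-library fit). With all libraries the fall was in Tppp3, a tubulin-binding protein, at -1.03 ± 0.29. The list came in sum to 62.7 to 132 CPM in lesion libraries, against 148 to 174 CPM in eutopic libraries. Of 10 mesothelial genes, 1 rose (0 without lesion library 1 or 4 or eutopic library 1, 2 or 4) and 0 fell (1 without lesion library 1 or 3), the rise being in Nkain4, a sodium pump interacting protein, at 1.63 ± 0.48. Of 9 keratins, 3 rose (1 without lesion library 3 or 4 or eutopic library 1 or 2, 0 without lesion library 2 or eutopic library 3 or 4) and 2 fell (1 without lesion library 1, 2, 3 or 4 or eutopic library 1, 2 or 3), with Krt23 at -2.14 ± 0.57 and Krt20 at 2.63 ± 0.77.

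Growth and stress genes were mixed. Beside them, 12.0% of all genes were called higher and 8.76% lower (18.1% and 15.3% in the 8-library fit). Of 24 cell cycle genes, 2 rose (1 without lesion library 2, 3 or 4 or eutopic library 2, 3 or 4, 13 in the 8-library fit) and 0 fell, and 23 had a positive difference, with a median of 0.54. Ccne1, cyclin E1, rose by 1.19 ± 0.30, and Mcm5, a DNA replication helicase subunit, by 0.76 ± 0.25. Of 21 glycolysis and hypoxia genes, 4 rose (2 without lesion library 2 or 4 or eutopic library 2) and 0 fell. Pfkp, a phosphofructokinase, rose by 1.02 ± 0.21, and Slc16a3, a lactate transporter, by 1.82 ± 0.42. Of 17 unfolded protein response genes, 5 rose (2 without lesion library 2 or eutopic library 2 or 4) and 0 fell. Sdf2l1 and Dnajb11, both of the endoplasmic reticulum, rose by 1.24 ± 0.23 and 0.54 ± 0.13. Of 18 immediate early genes, 6 rose (3 without lesion library 2 or eutopic library 2 or 4, 2 without eutopic library 3, 10 in the 8-library fit) and 0 fell (1 without eutopic library 1, 1 in the 8-library fit). Nr4a3, an orphan nuclear receptor, and Egr2, a zinc finger factor, rose by 2.38 ± 0.52 and 2.25 ± 0.56. Of 12 epithelial-mesenchymal factors, 1 rose (0 without lesion library 1, 2 or 4 or eutopic library 2, 3 or 4) and 1 fell (2 in the 8-library fit), the fall being in Snai2 at -0.87 ± 0.23. Of 8 aquaporins, 2 rose (1 without lesion library 2, 0 without lesion library 4 or eutopic library 1, 2, 3 or 4) and 1 fell (0 without lesion library 4). Aqp7 rose by 3.95 ± 1.25 and Aqp11 fell, with a log2 change of -1.40 ± 0.37. Of 14 EGF family genes, 1 rose (0 without lesion library 4) and 2 fell (1 without lesion library 1, 2 or 4 or eutopic library 2, 3 or 4). Errfi1, an inhibitor of EGF receptor signalling, fell, with a log2 change of -1.08 ± 0.25, and Erbb4, a receptor, rose by 4.51 ± 1.19. Of 9 liver genes, 2 rose (1 without lesion library 1 or eutopic library 3 or 4, 0 without lesion library 2 or eutopic library 1 or 2, 1 in the 8-library fit) and 1 fell (2 without eutopic library 1, 2 in the 8-library fit). Of 8 ovarian genes, 0 rose (1 in the 8-library fit) and 0 fell, 0 higher and 0 lower had an unadjusted p under 0.05, DESeq2 called 0, and limma voom called 1 higher. Star, which moves cholesterol into mitochondria, averaged 19.0 ± 2.05 CPM over the lesion libraries, against 7.60 ± 4.15 CPM over the eutopic ones (SD, n = 4 each), and was called higher in the 8-library fit (adjusted p = 0.0122) and not with all libraries (adjusted p = 0.376). Of 8 red blood cell genes, 1 rose (0 without lesion library 2 or eutopic library 1) and 0 fell, the rise being in Bpgm, a glycolytic mutase, at 0.53 ± 0.15. Of 12 mitochondrial DNA genes, 0 rose and 1 fell (2 in the 8-library fit), with all libraries mt-Nd6 at -0.69 ± 0.17, which lies antisense to other mitochondrial genes, with strand use in counting not given in the sources used here.

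**Figure D4:**
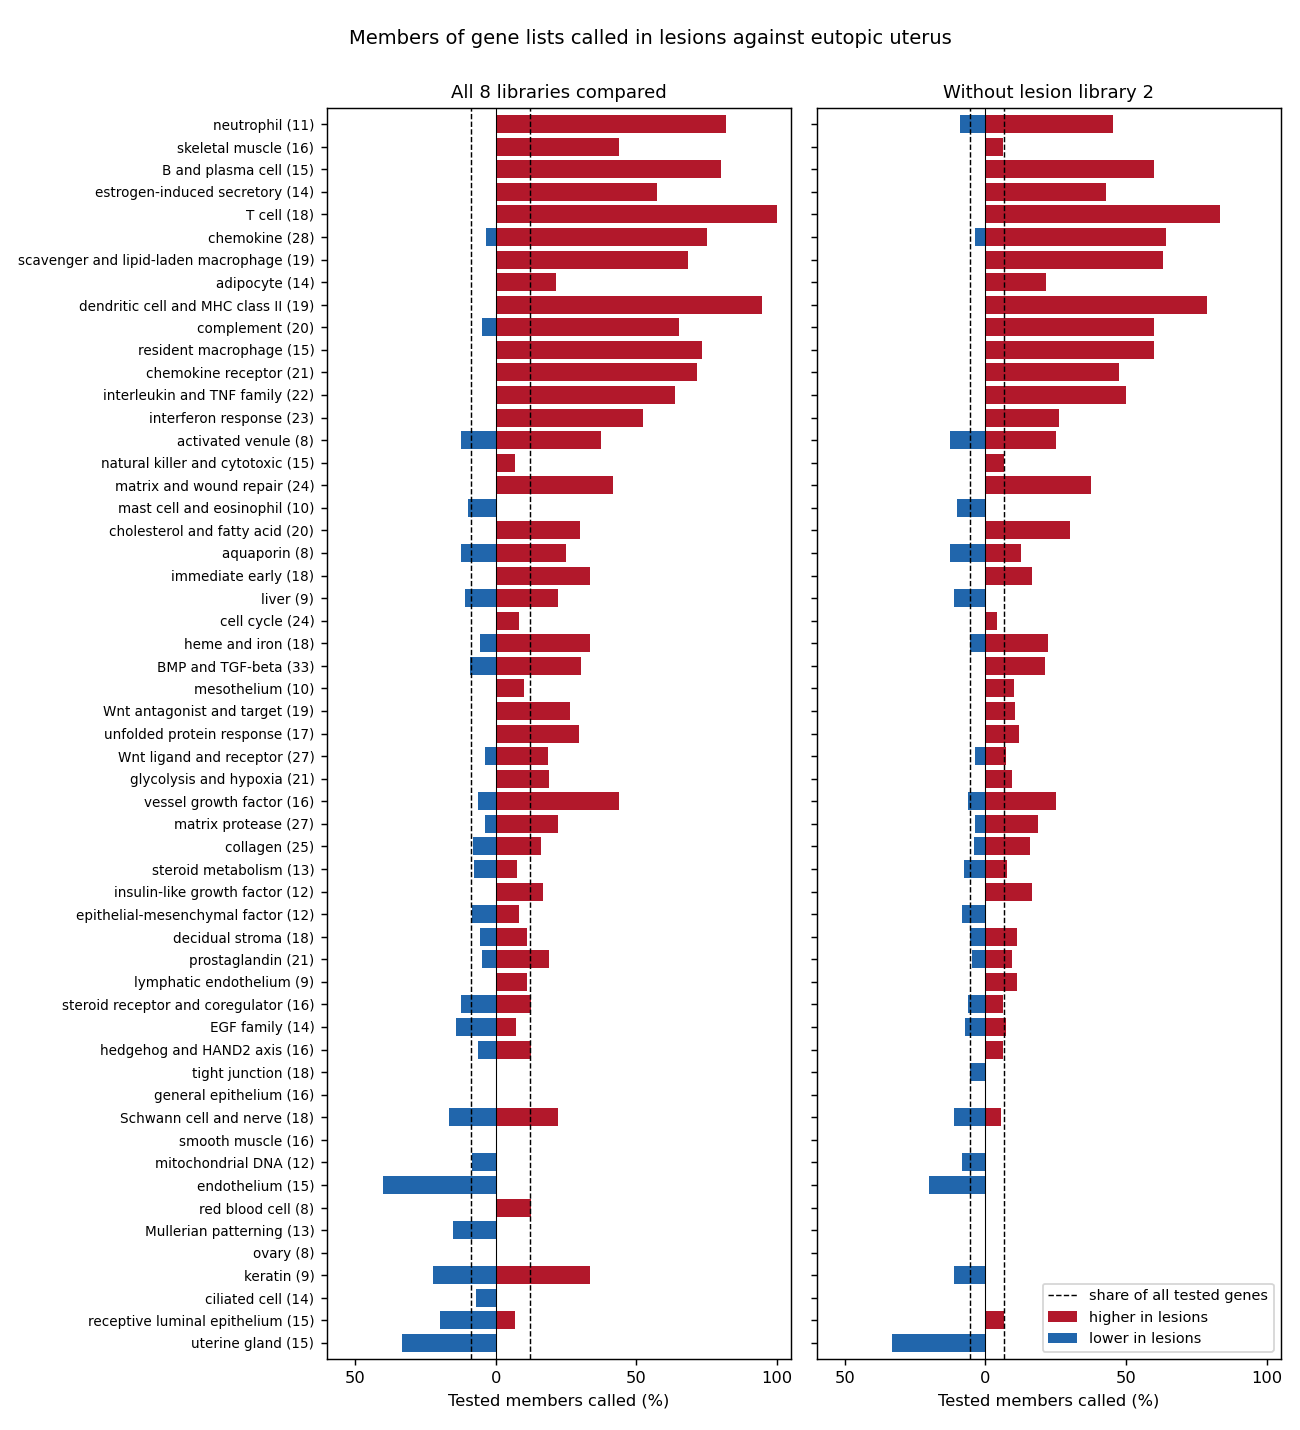
Share of tested members called higher (right, red) or lower (left, blue) in lesions for 55 lists with at least 8 tested members, with all libraries (left panel) and without lesion library 2 (right panel), the pancreatic list being left out and the dashed lines marking the share over all genes. T cell genes called higher number 18 of 18 and 15, endothelial genes called lower 6 and 3 of 15, and gland genes called lower 5 and 5 of 15.

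The change of the difference with time was tested for the same pair of tissues. Of 22249 genes, 171 were called (0.769%), 70 (0.315%) with a difference that was more positive at 1 month than at 3 months and 101 (0.454%) with one more negative. The genes called in the change of the lesion-eutopic difference between times numbered 14 without lesion library 1 at 1 month, 390 without lesion library 2 at 1 month, and 16 to 69 without any 1 of the other 6 libraries of that age. They numbered 901, 55, 990 and 448 without lesion library 1, 2, 3 and 4 at 3 months, and 17 to 33 without any 1 eutopic library at 3 months, so the count depends on single libraries. With the replicate number as a block within time, 30 genes were called. Pla2g10, a secreted phospholipase, had 18.3, 2.96, 19.5 and 14.0 CPM in lesion and 27.1, 35.9, 32.1 and 49.7 CPM in eutopic libraries at 1 month, and 0.150, 0, 0.397 and 0.0634 CPM in lesion and 16.8, 35.6, 30.8 and 35.9 CPM in eutopic libraries at 3 months. Ifi202b, an interferon-inducible DNA sensor gene with close paralogs, had 15.4, 21.5, 12.0 and 23.9 CPM in lesion and 11.8, 11.5, 11.3 and 10.2 CPM in eutopic libraries at 1 month, and 0.225, 0.652, 10.9 and 21.8 CPM in lesion and 0.0385, 0.0415, 0.0193 and 0 CPM in eutopic libraries at 3 months. Ryr1, the calcium release channel of skeletal muscle, had 4.14, 45.3, 2.57 and 5.37 CPM in lesion and 1.77, 1.66, 1.08 and 1.14 CPM in eutopic libraries at 1 month, and 72.5, 1849, 557 and 345 CPM in lesion and 1.39, 1.49, 1.27 and 1.85 CPM in eutopic libraries at 3 months. The changes were 6.15 ± 1.18, -7.61 ± 1.38 and -5.54 ± 1.14 (adjusted p = 0.0293, 0.0217 and 0.0334). With the block none of the 3 was called (adjusted p = 0.0665, 0.0534 and 0.0509), and of 16 fits that each left out 1 library of the contrast, 8 called Pla2g10, 12 called Ifi202b and 4 called Ryr1. Summed skeletal muscle genes ran from 133 to 1879 CPM in lesions and from 138 to 181 CPM in eutopic uterus at 1 month. At 3 months they ran from 28.3 to 65369 CPM in lesions and from 123 to 180 CPM in eutopic uterus. They were thus not high in every lesion, and the part of muscle in these changes was not tested.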

How the data were processed

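Whole-number read counts per gene of 24 libraries were used as deposited by the authors. Per the submitters' processing notes, STAR 2.7.9a, bcl2fastq 1.9.0, edgeR and genome build mm39 were used; annotation, counting mode and strand: not given in the sources used here. Overlapping, antisense and near-identical genes are therefore uncertain. No batch or date is labelled. The quasi-likelihood test of edgeR 4.0.16 (R 4.3.3) was fitted to all 24 libraries after filterByExpr and TMM scaling (6 group means, Benjamini-Hochberg adjustment over all tested genes). CPM are TMM-scaled. Floors of 3 counts cover counting error only. Alternatives used DESeq2 1.42.0, limma 3.58.1 and the settings named in the closing section. Promoter sequences came from RefSeq and transcripts from GENCODE, both on GRCm38 and not on mm39, and no files' coordinates were mixed with them.

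The members, the 59 gene lists (967 genes, 966 in the table, 902 tested) and the named genes were chosen with earlier results of these data known. Named genes were 7 uterine genes and the 8 largest rises and 8 largest falls among non-overlapping genes. Those rises and falls were called with and without lesion library 2 with the same sign and had a mean log2 CPM of at least 1. Each list gave up to 2 called members with the smallest p among those that did not overlap or, with none, the 1 with the smallest p. Non-overlap of such genes follows from this choice. Genes of at least 100 CPM in lesion library 2 were ranked by their ratio to the highest other lesion library, and the top 6 were named. Another 4 genes per direction came from the change with time. Extremes, library 2 genes and time genes left out predicted genes, receptor segments and pseudogenes. Some genes that this rule names are not reported here. Other genes named were picked with their values in view. Scripts were tested on simulated data.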

Additional observations from a re-analysis of the deposited data

Results flagged for a closer look

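Single libraries stood far from the other 3 of their group in 26 of 376 groups of 4 values examined, where chance gives about 1 in 20. In lesions, library 2 stood apart in the summed pancreatic acinar genes (145270 CPM), the summed gut genes (210.8 CPM), Zg16 (2346 CPM), Pnliprp2 (813 CPM), Bpgm (29.9 CPM) and Slc51a (2.80 CPM). Lesion library 1 stood apart in Lrrc3b (1.04 CPM) and Star (15.98 CPM), lesion library 3 in the summed cell cycle genes (2067 CPM), and lesion library 4 in Hpx (0.420 CPM) and the summed lymphatic genes (149 CPM). In eutopic uterus, library 1 stood apart in Pgr (276 CPM), Mbp (15.8 CPM), Tgfbr1 (80.8 CPM), Pfkp (51.7 CPM), the summed BMP and TGF-beta genes (2222 CPM) and the summed heme and iron genes (1711 CPM). Eutopic library 2 stood apart in Pdpn (34.6 CPM), Atp6v0d2 (1.54 CPM) and the summed prostaglandin genes (809 CPM). Eutopic library 3 did so in Atp2a1 (0.315 CPM), Pvalb (0.0166 CPM) and the summed ovarian genes (54.7 CPM). Eutopic library 4 did so in Ltf (122 CPM), Pnlip (0.0838 CPM) and the summed gut genes (13.5 CPM).

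The difference between lesions and eutopic uterus changed with time in 11 named genes with all 24 libraries, of which 2, Fzd2 and Slc5a11, were called with a replicate block, 6 with limma voom and 11 with DESeq2. Fzd2 was called in each of 16 fits that left out 1 library of the contrast, and the others in 4 to 12 of them. Values are the log2 difference at 1 month minus that at 3 months with the adjusted p of the interaction. It was more positive at 1 month in Pla2g10 (6.15, 0.0293), Slc51a (5.82, 0.037), Ano2 (5.59, 0.0342), Slc5a11 (5.47, 0.0211), Aqp11 (2.42, 0.0389) and Fzd2 (1.21, 0.00809). It was more negative at 1 month in Ifi202b (-7.61, 0.0217), Ryr1 (-5.54, 0.0334), Neb (-5.46, 0.0425), Cmya5 (-5.44, 0.0389) and Bpgm (-0.94, 0.0425).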

How the results depend on the processing

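The genes called between lesions and eutopic uterus at 1 month numbered 4607, and 2595 to 4705 when 1 library was left out. The genes called higher in lesions than in eutopic uterus at 1 month then numbered 1489 to 2495, and the genes called lower in lesions than in eutopic uterus at 1 month 1068 to 2210. Limma voom with sample weights called 10013 genes, 5228 higher and 4785 lower. The fit of the 8 compared libraries alone called 3089 lower, and 3105 with the replicate block. The same-numbered libraries correlated at 0.191, 0.107, 0.179 and 0.0735 in their deviations from the group means. Each lesion library correlated best with the eutopic library of its own number, so the samples may be paired. The labels do not say so, and the main fit did not pair them. With the block 6834 genes were called, 3729 higher and 3105 lower.

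Of genes called in the change of the lesion-eutopic difference between times, the number was 171, and it was 824 with DESeq2, 468 with limma voom and 30 with a replicate block within time, and 14 to 990 when 1 of the 16 libraries of the contrast was left out. The 8 of these fits that left out a 3-month library were chosen after seeing the data. The difference of Pgr was near 0 and turned negative with DESeq2 (-0.0030), DESeq2 size factors (-0.0030), no filter on low counts (-0.0078) and the 8 compared libraries (-0.016), and it ran from -0.11 to 0.26 when 1 library was left out. The causes were not tested. Over the named genes, 945 of the results with 1 library left out kept direction and side of the threshold, and 146 lost the call. Counts without genome annotation limit statements on paralogs, and genes at 0 in a group rest on few reads.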
